A study of Homo sapiens with 32 samples.

Results

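The small heat shock protein family comprises 10 of the 60107 genes in the count table, found by matching each Ensembl identifier to its GENCODE 29 symbol. The members are HSPB1, HSPB2, HSPB3, CRYAA, CRYAB, HSPB6, HSPB7, HSPB8, HSPB9 and HSPB11. Each symbol matched 1 identifier. RNA was sequenced in 32 libraries of 2 human cell lines, HEK293T from embryonic kidney and U2OS from osteosarcoma. The study compared camptothecin (CPT), which traps topoisomerase 1 on DNA, and the loss or inhibition of the DNA damage kinase ATM with untreated cells. All values below are transcript levels, and no protein was measured in these files.

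Small heat shock proteins are chaperones that bind unfolding proteins without using ATP and hold them until the HSP70 machinery can refold them or pass them to degradation. Members other than HSPB11 share an alpha-crystallin domain and assemble into oligomers. HSPB1 and CRYAB are widely made and heat-inducible, HSPB8 works with the co-chaperone BAG3 in selective autophagy, and HSPB2, HSPB3, HSPB6 and HSPB7 are best known from heart and skeletal muscle. CRYAA is a structural protein of the eye lens and HSPB9 is known from testis. HSPB11 has the name IFT25 in newer annotation and is a subunit of the intraflagellar transport B complex of cilia.

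The labels assign 4 libraries each to U2OS CPT, U2OS DMSO (the solvent control), U2OS ATM KO, U2OS WT, HEK293T CPT and HEK293T ATM KO, and 8 libraries to HEK293T DMSO. Drug or DMSO was given for 24 h and followed by 48 h of recovery, while U2OS WT and ATM KO cells grew untreated for 72 h. The study's methods give CPT doses of 100 nM for HEK293T and 400 nM for U2OS in its proteomics. Its text speaks of RNA sequencing of HEK293T cells after ATM inhibition and of no HEK293T ATM KO, and lists the inhibitor KU-55933 at 9 µM, so the libraries labelled HEK293T ATM KO (replicates 18 to 21) are taken here as ATM inhibitor. The U2OS ATM KO cells came from picked CRISPR/Cas9 clones. The study speaks of 4 independent repeats. Each library goes by the replicate number of its title.

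Cell line labels and expression profiles went apart in 14 of the 32 libraries. In replicates 18 to 33 both gave the same line. ZIC2, a transcription factor made in HEK293T cells, ran from 143 to 190.4 CPM (counts of a gene per 1000000 counts on all genes of the library) in the HEK293T libraries of that set and reached at most 1.25 CPM in the U2OS libraries. S100A6, a calcium-binding protein of mesenchymal cells, ran from 106 to 325 CPM in the U2OS libraries and reached at most 2.39 CPM in the HEK293T libraries. Replicates 2 to 8 are labelled HEK293T but had ZIC2 at no more than 0.706 CPM and S100A6 at 143 CPM or more. Replicates 10 to 16 are labelled U2OS but had ZIC2 at 109 CPM or more and S100A6 at no more than 0.612 CPM. Replicate 1, labelled U2OS WT, and replicate 17, labelled HEK293T DMSO, matched their labels. ZIC2 and S100A6 come from lists of 8 markers for each line. All 8 U2OS markers were higher in U2OS DMSO than in HEK293T DMSO, past the threshold given below. Of the 8 HEK293T markers only 3 were lower, and 3 were higher. The U2OS markers summed to 1406 CPM or more in replicates 1 to 8 and to at most 129 CPM in 10 to 17. The HEK293T markers summed to at most 319 CPM and to 517 CPM or more.

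By number, replicates 10, 12, 14 and 16 against 11, 13, 15 and 17 would be HEK293T CPT against DMSO, and replicates 2, 4, 6 and 8 against 1, 3, 5 and 7 would be U2OS ATM KO against WT. The deposited labels say otherwise, so directions in these 16 libraries are given between libraries, by number, and not for a treatment. Even numbers are labelled as treated or knockout and odd numbers as control under either reading. ATM could not serve as a check, since a count at the 3′ end of a transcript need not fall with an edit elsewhere in the gene. It stood at 61.6, 52.9, 54.7 and 34.2 CPM in replicates 2, 4, 6 and 8 and at 57.2, 68.4, 53.4 and 63.5 CPM in 1, 3, 5 and 7. The library totals ran from 1232674 to 6362433 counts on genes, so that the detection floor of 3 counts lies between 0.472 and 2.43 CPM. Each transcript gives fragments from its 3′ end only, so counts do not grow with transcript length.

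Promoters of HSPB1 and HSPB8 are shown because HSPB1 was lower and HSPB8 higher in each CPT-treated U2OS library than in any DMSO library. The heat shock element, to which heat shock factor 1 binds, is built from inverted repeats of GAA, and both of its dimer forms, GAANNTTC and TTCNNGAA, were searched (each reads the same on both strands). Sequences are from RefSeq on GRCh38.p14, 5′ to 3′ on the gene's strand, from 250 bases before to 50 bases after the start site, with the matches in capitals.
HSPB1, chr7:76302423-76302722, + strand: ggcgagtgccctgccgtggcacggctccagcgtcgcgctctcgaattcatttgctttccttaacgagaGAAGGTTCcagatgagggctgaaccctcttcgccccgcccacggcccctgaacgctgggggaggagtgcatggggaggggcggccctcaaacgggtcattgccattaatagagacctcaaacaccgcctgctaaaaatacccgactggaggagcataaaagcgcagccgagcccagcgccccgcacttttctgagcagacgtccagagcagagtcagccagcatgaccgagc
HSPB8, chr12:119178681-119178980, + strand: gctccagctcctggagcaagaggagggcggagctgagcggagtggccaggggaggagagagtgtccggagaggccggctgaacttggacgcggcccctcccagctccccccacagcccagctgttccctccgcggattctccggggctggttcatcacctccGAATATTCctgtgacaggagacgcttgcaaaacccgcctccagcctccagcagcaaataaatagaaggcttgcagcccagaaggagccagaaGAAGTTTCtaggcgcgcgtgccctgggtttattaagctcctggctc
The HSPB1 window holds 1 match, which begins at position -182 from the start site, and the HSPB8 window holds 2, which begin at positions -88 and 5. Promoters were found for 8 of the 10 members. HSPB3 also had 1 match and HSPB6 had 2, whereas the windows of CRYAA, HSPB7, HSPB9 and HSPB11 held none. Of 35116 RefSeq promoters of the same length, 13.5% held at least 1 of these forms. A match is a run of letters and no evidence of binding.

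The family was carried by a few members. HSPB1, HSPB11, CRYAB and HSPB8 had counts in at least 29 libraries, and the other 6 were at or near the detection limit. CRYAA had 0 counts in all 32 libraries and HSPB7 had 4 counts in total, never more than 1 in a library. HSPB3 had 21 counts, HSPB6 49, HSPB9 63 and HSPB2 96, against 35248 for HSPB1. In libraries with the U2OS profile HSPB1 made up most of the family's counts, with group medians of 86.9% in U2OS DMSO, 83.9% in replicates 1, 3, 5 and 7, 74.2% in 2, 4, 6 and 8 and 71.4% in U2OS CPT. In libraries with the HEK293T profile the median share of HSPB1 lay between 52.5% and 63.5%, and most of the rest was HSPB11, between 34.9% and 44.4%.

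**Figure D1:**
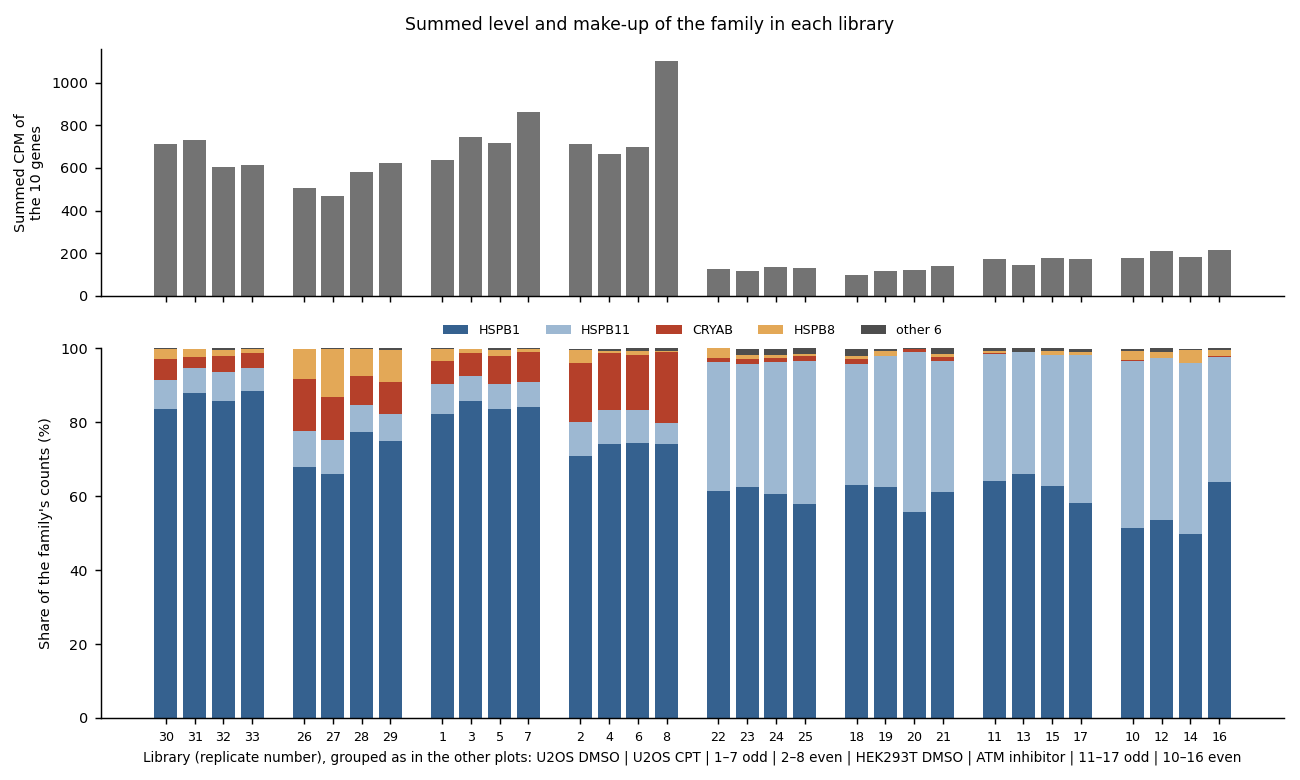
Bars give, for each of the 32 libraries, the summed CPM of the 10 genes (top, linear axis from 0) and the percent of the family's counts from each gene (bottom), with the library number below. HSPB1 fills most of every bar with the U2OS profile, HSPB11 takes 32.8% to 46.0% of the bars with the HEK293T profile, and the summed level is highest in replicate 8.

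Untreated lines were compared in the DMSO libraries whose line the labels and profiles both give, U2OS replicates 30 to 33 and HEK293T replicates 22 to 25. Of the 6 members tested, 5 passed the threshold, 4 of them higher and 1 lower in U2OS, where 39.9% of the 19739 genes tested passed. HSPB6 met the filter on counts only through the U2OS libraries and HSPB9 only through the HEK293T libraries, where each was higher. To pass, a gene needed a log2 fold change beyond 1 in either direction and an adjusted p (Benjamini-Hochberg, over all genes tested) below 0.05 in edgeR's quasi-likelihood test. Levels are CPM on library totals, while fold changes also carry edgeR's TMM scaling between libraries. In bulk RNA, a change in the number of cells with a transcript and a change in transcript per cell cannot be told apart.

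HSPB1, a chaperone that also acts on actin and redox state, stood at 596, 645.5, 520 and 544 CPM in U2OS DMSO and at 77.2, 72.3, 81.2 and 73.8 CPM in HEK293T DMSO. The groups were far apart, at 576 ± 56.1 and 76.1 ± 3.96 CPM (mean ± SD, n = 4 each). This is 8.83-fold, a log2 fold change of 3.14 (SE 0.112, edgeR adjusted p = 1.80e-22). Among all genes by mean level, HSPB1 ranked 134 of 24450 genes with a count in U2OS DMSO and 2729 of 23912 in HEK293T DMSO.

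CRYAB, the alpha-B crystallin that partners HSPB1 in mixed oligomers, stood at 40.4, 21.7, 26.4 and 24.0 CPM in U2OS DMSO. HEK293T DMSO had 1.196, 1.71, 1.503 and 1.78 CPM, which are 4 to 6 counts per library. CRYAB was 20.6-fold higher in U2OS (log2 fold change 4.37, SE 0.257, edgeR adjusted p = 1.37e-16). HSPB8 ran from 6.49 to 19.8 CPM in U2OS DMSO and from 0.593 to 3.29 CPM in HEK293T DMSO. Its groups did not overlap either, and the difference was 9.43-fold (log2 fold change 3.24, SE 0.352, edgeR adjusted p = 6.51e-10).

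HSPB11 gave no such contrast between the lines. It stood at 47.4 ± 7.14 CPM in U2OS DMSO and 45.0 ± 4.85 CPM in HEK293T DMSO (SD, n = 4 each). Its log2 fold change was 0.29 (95% interval 0.0371 to 0.541, edgeR adjusted p = 0.0501). The remaining 2 members past the threshold were near the floor. HSPB6, a muscle chaperone, had 16 counts over the U2OS DMSO libraries and 3 over the HEK293T DMSO libraries, a ratio of 5.52 in CPM with a 95% counting interval from 1.58 to 29.6. HSPB9 had 0 counts over the U2OS DMSO libraries and 19 over the HEK293T DMSO libraries, and the 95% counting interval of the ratio in CPM reached up to 0.222.

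The other control libraries, replicates 1, 3, 5 and 7 against 11, 13, 15 and 17, gave a second reading of the lines. HSPB1 ran from 526 to 725 CPM in the first and from 95.8 to 110.3 CPM in the second, a log2 fold change of 2.94 (SE 0.132, edgeR adjusted p = 2.14e-20). CRYAB had 614 counts over replicates 1, 3, 5 and 7 and 3 counts over 11, 13, 15 and 17. Its mean level was 52.3 CPM in the first and 0.140 CPM in the second. U2OS DMSO and HEK293T DMSO had 28.1 and 1.55 CPM, so the gap was wider here. Over the alternatives, the log2 fold change of CRYAB between the lines ran from 4.15 to 8.57. The size of its difference thus depended on the control libraries, and it rests on few counts in those with the HEK293T profile. HSPB8 differed by 3.90 on the log2 scale (SE 0.424, edgeR adjusted p = 3.99e-10). The log2 fold change of HSPB6 turned to -0.32 (edgeR adjusted p = 0.762) and that of HSPB9 was -0.83 (edgeR adjusted p = 0.421), so neither passed in these libraries.

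Of the related gene lists, 6 of 21 heat shock factors and stress-inducible chaperones were higher and 1 lower past the threshold in U2OS DMSO against HEK293T DMSO. The share of all genes past the threshold here was 39.9%. Among 10 partners of the HSPB8-BAG3 pathway SQSTM1, the autophagy receptor p62, passed, at 121 ± 10.4 against 56.2 ± 6.10 CPM (SD, n = 4 each; log2 fold change 1.33, SE 0.114, edgeR adjusted p = 2.91e-12). Muscle contractile genes were higher in 8 and lower in 2 of 11 tested, and 4 of 16 intraflagellar transport B subunits were lower. All 8 U2OS markers were higher in U2OS, while only 3 of 8 HEK293T markers were lower and 3 were higher.

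**Figure D2:**
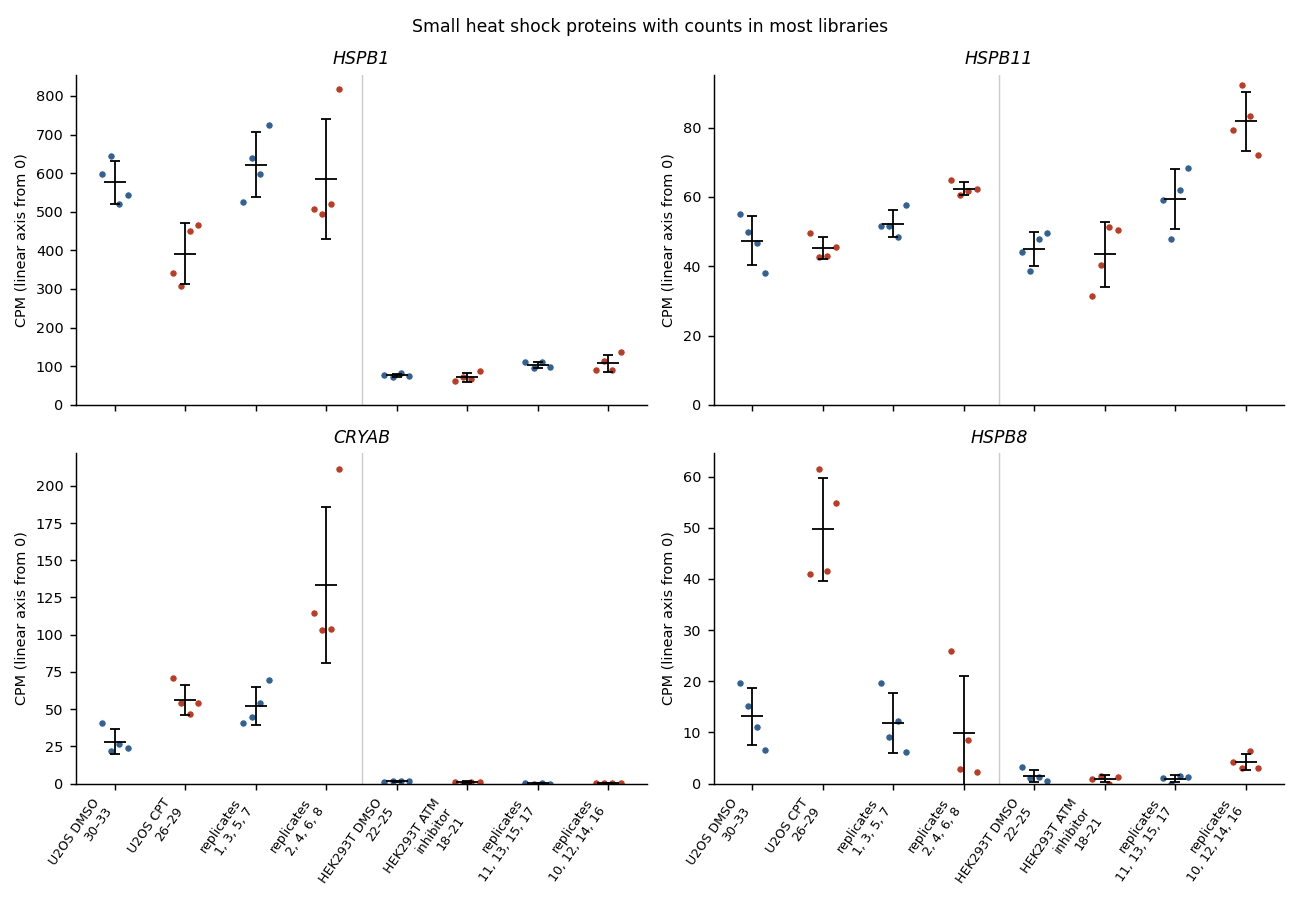
Points give the CPM of HSPB1, HSPB11, CRYAB and HSPB8 in each of the 32 libraries on linear axes from 0, with even-numbered replicates of 1 to 17 and drug-treated libraries in red, controls in blue, and bars for the mean ± SD of 4 libraries. HSPB1, CRYAB and HSPB8 have their 4 highest group means left of the grey line (U2OS profile), HSPB11 has not, and HSPB8 reaches 61.4 CPM in U2OS CPT.

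CPT was tested in U2OS cells with replicates 26 to 29 against the DMSO replicates 30 to 33, which also served in the comparison of lines. Of the 6 members tested, 4 passed the threshold (HSPB8, CRYAB and HSPB2 higher, HSPB6 lower), where 13.5% of the 19080 genes tested passed. HSPB2 met the filter on counts only through the CPT libraries and HSPB6 only through the DMSO libraries, where each was higher. At an adjusted p under 0.05 with no cutoff on fold change 5 members passed, where 31.9% of all genes did. HSPB3, CRYAA, HSPB7 and HSPB9 had too few counts to be tested.

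HSPB8 stood at 40.9, 61.4, 41.6 and 54.9 CPM after CPT and at 19.8, 15.1, 11.1 and 6.49 CPM after DMSO. The lowest CPT library lay above the highest DMSO library. HSPB8 rose 4.39-fold (log2 fold change 2.13, SE 0.196, edgeR adjusted p = 2.63e-10). With CPT its mean moved from 13.1 ± 5.66 to 49.7 ± 10.1 CPM (SD, n = 4 each), above that of HSPB11.

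CRYAB stood at 70.6, 54.0, 46.8 and 54.3 CPM after CPT and at 40.4, 21.7, 26.4 and 24.0 CPM after DMSO. Here too the groups did not overlap, though the lowest CPT and the highest DMSO library lay close together. CRYAB rose 2.27-fold (log2 fold change 1.19, SE 0.155, edgeR adjusted p = 3.08e-07). On library totals without TMM scaling the value was 1.01 on the log2 scale.

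HSPB1 went the other way. It stood at 342.5, 309, 449.5 and 467 CPM after CPT, below each of the DMSO libraries at 596, 645.5, 520 and 544 CPM. The fall was 1.31-fold (log2 fold change -0.39, SE 0.120, edgeR adjusted p = 0.0129), past the cutoff on p but short of the cutoff on fold change. Leaving out replicate 26 or 27 ended the call on p (edgeR adjusted p = 0.0544 and 0.0909), with log2 fold changes of -0.33 and -0.30. Over all alternatives the log2 fold change of HSPB1 ran from -0.56 to -0.30. Its share of the family's counts dropped from between 83.7% and 88.6% to between 66.0% and 77.3%. HSPB11 stood at 45.3 ± 3.24 CPM after CPT and 47.4 ± 7.14 CPM after DMSO (SD, n = 4 each), and the groups overlapped (log2 fold change 0.12, 95% interval -0.13 to 0.36, -0.06 without TMM scaling, edgeR adjusted p = 0.523).

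Both low members past the threshold rest on single counts. HSPB2 had 3, 2, 2 and 5 counts after CPT and 1, 0, 1 and 0 after DMSO. The ratio of 12 to 2 counts was 6.47 in CPM with a counting interval from 1.44 to 59.6 (edgeR adjusted p = 0.0257), and it missed the threshold with DESeq2 (adjusted p = 0.0882) and when replicate 29, 31 or 33 was left out. HSPB6 had 0 counts in each CPT library and 1, 3, 5 and 7 after DMSO. The 95% counting interval of the ratio of 0 to 16 counts in CPM reached up to 0.280 (edgeR adjusted p = 0.00340).

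**Figure D3:**
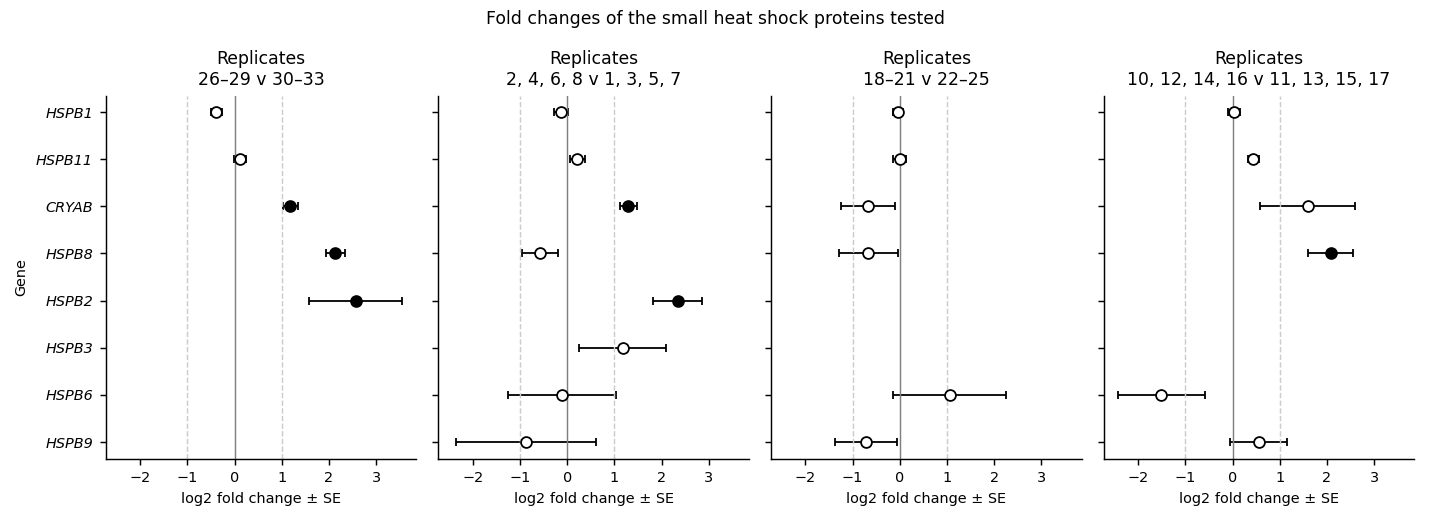
Points give the log2 fold change ± SE of each member in 4 comparisons (edgeR, 4 libraries against 4), filled where the threshold was passed; dashed lines mark a log2 fold change of 1 in either direction. Members not tested and HSPB6 in the first panel, which had 0 counts in 1 group, carry no SE and are not drawn. HSPB8 is filled in the first and last panels and CRYAB and HSPB2 in the first and second.

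Lists of related genes moved unevenly in the same libraries. None of 19 heat shock factors and stress-inducible chaperones passed the threshold, where 13.5% of all genes passed. Their log2 fold changes had a median of -0.06, against 0.01 for all genes. At adjusted p alone 2 of them rose and 6 fell, where 31.9% of all genes passed. Among the latter, HSPA1A, an inducible HSP70, went from 185 to 87.3 CPM (log2 fold change -0.90, edgeR adjusted p = 1.56e-06). HSPA1A and HSPA1B are nearly identical copies, so the split of reads between them is uncertain. Of the 10 partners of the HSPB8-BAG3 pathway, 1 passed. This was OPTN, an autophagy receptor, with 76.0 ± 6.09 CPM after CPT and 32.2 ± 2.25 CPM after DMSO (SD, n = 4 each; log2 fold change 1.40, SE 0.126, edgeR adjusted p = 1.72e-10). BAG3 itself stood at 41.9 and 34.2 CPM (log2 fold change 0.47, edgeR adjusted p = 0.00434).

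Muscle contractile genes, listed because several members are abundant in muscle, had a median log2 fold change of 1.05. Of 12 tested, 5 rose and 1 fell past the threshold, where 13.5% of all genes passed. FLNC, an actin crosslinker and client of the BAG3 pathway, rose from 21.6 ± 5.61 to 169 ± 26.3 CPM (SD, n = 4 each; log2 fold change 3.15, SE 0.147, edgeR adjusted p = 4.00e-17). ACTA2, TAGLN, CNN1 and TPM2 rose as well, by 1.25 to 4.00 on the log2 scale. MYOCD, a coactivator of smooth muscle genes, fell from 41.6 ± 12.5 to 0.467 ± 0.597 CPM (SD, n = 4 each; log2 fold change -6.17, edgeR adjusted p = 4.11e-15). None of 16 subunits of intraflagellar transport B, the complex of HSPB11, passed. Of the 8 U2OS markers, 4 passed and all 4 were higher after CPT (CD44, CAV1, TGFBI and S100A6). Their summed level ran from 2210 to 2282 CPM after CPT and from 1334 to 1646 CPM after DMSO, and their part in the members' values was not tested. The summed level of the 8 HEK293T markers, of which 1 was higher and 1 lower past the threshold, ran from 261 to 310.4 and from 259 to 296 CPM.

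ATM inhibition was tested in HEK293T cells with replicates 18 to 21 against the DMSO replicates 22 to 25. None of the 6 members tested passed the threshold, where 0.00% of the 18413 genes tested passed in edgeR (1019 genes had an unadjusted p under 0.05, and 0 passed with DESeq2). With the likelihood ratio test 2 genes passed, and with no filter on low counts also 2. No member had an unadjusted p under 0.05. HSPB1 stood at 60.5, 71.1, 66.1 and 86.3 CPM with the inhibitor and at 77.2, 72.3, 81.2 and 73.8 CPM with DMSO. The groups overlapped (log2 fold change -0.05, 95% interval -0.26 to 0.17, edgeR adjusted p = 0.978). HSPB11 ran from 31.5 to 51.4 CPM and from 38.6 to 49.5 CPM (95% interval of the log2 fold change -0.26 to 0.26). CRYAB and HSPB8 were too low for a narrow interval. CRYAB had 12 counts over the inhibitor libraries and 22 over the DMSO libraries, with a log2 interval from -1.80 to 0.46, and HSPB8 had an interval from -1.89 to 0.56. HSPB6 had 6 counts against 3 and HSPB9 had 10 against 19. No gene of the related lists passed either, of 20 stress-inducible chaperones and heat shock factors, 10 HSPB8-BAG3 partners, 9 muscle contractile genes and 16 intraflagellar transport B subunits, nor did any marker of either line. The U2OS markers summed to between 46.6 and 106 CPM with the inhibitor and between 53.3 and 103.5 CPM with DMSO.

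Among the libraries of the number set with the HEK293T profile, 10, 12, 14 and 16 were compared with 11, 13, 15 and 17. Of the 6 members tested 1 passed the threshold, where 14% of the 19464 genes tested passed. HSPB8 stood at 4.29, 3.09, 6.397 and 2.99 CPM in the even-numbered and at 1.01, 0, 1.56 and 1.33 CPM in the odd-numbered libraries. These are 14, 10, 20 and 19 counts against 6, 0, 7 and 6. HSPB8 was 4.23-fold higher in the even-numbered libraries, which did not overlap with the others (log2 fold change 2.08, SE 0.473, edgeR adjusted p = 0.00130). Without replicate 17 the log2 fold change was 2.26 (edgeR adjusted p = 0.00118). With the deposited labels, which put the U2OS-profile replicate 1 in place of 17, it was -0.27 (edgeR adjusted p = 0.928).

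HSPB11 stood at 79.3, 92.3, 83.5 and 72.1 CPM in replicates 10, 12, 14 and 16 and at 59.1, 47.7, 62.0 and 68.5 CPM in 11, 13, 15 and 17. The groups did not overlap, and the difference of 1.36-fold passed at adjusted p alone (log2 fold change 0.44, SE 0.124, edgeR adjusted p = 0.00773), as did 34.9% of all genes. HSPB1 stood at 107 ± 21.6 and 104 ± 7.46 CPM (SD, n = 4 each; 95% interval of the log2 fold change -0.22 to 0.28). CRYAB had 8 counts over the even-numbered and 3 over the odd-numbered libraries (log2 fold change 1.59, 95% interval -0.37 to 3.55, edgeR adjusted p = 0.179).

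In these libraries the HSPB8-BAG3 partners held 4 genes higher and 1 lower past the threshold, of 10 tested. The median of their log2 fold changes was 0.48, against 0.04 for all genes. BAG3 stood at 43.1 ± 7.76 and 20.5 ± 4.47 CPM (SD, n = 4 each; log2 fold change 1.04, edgeR adjusted p = 3.80e-05). SQSTM1 stood at 131 and 63.2 CPM, OPTN at 156 and 62.2 CPM, and SYNPO2, a BAG3-binding protein, at 4.16 and 0.729 CPM. HDAC6, a deacetylase of the aggresome route, was lower at 15.8 against 34.1 CPM. Of 20 heat shock factors and stress-inducible chaperones, 4 were higher past the threshold and 0 lower (DNAJA1, BAG3, HSPA1A and HSPA1B). BAG3 is in both lists. HSPA1A was low, at 3.805 against 1.463 CPM, and its reads are not split from those of HSPA1B with certainty. Muscle contractile genes were higher in 3 of 11 (ACTA2, MYH11 and MYOCD). MYH11 stood at 0.590 against 0.0844 CPM and MYOCD at 1.05 against 0.153 CPM, both near the floor of 3 counts. Of the intraflagellar transport B list none of 16 passed, but at adjusted p alone 9 were lower and 1 higher, while HSPB11 was higher. The U2OS markers summed to between 90.4 and 129 CPM in the even-numbered and between 28.8 and 37.0 CPM in the odd-numbered libraries, with 3 of 7 tested higher past the threshold. TGFBI was at 0 in all 4 odd-numbered libraries. The 3 were ANXA1, which stood at 32.2 against 4.46 CPM (log2 fold change 2.82), LGALS1 at 28.4 against 7.38 CPM (1.95) and CD44 at 0.700 against 0.111 CPM (2.51). The HEK293T markers summed to between 517 and 589 and between 526 and 641 CPM, with 3 of 8 higher past the threshold. The part of these markers in the members' values was not tested.

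Libraries 2, 4, 6 and 8 were compared with 1, 3, 5 and 7, all with the U2OS profile. Of the 8 members tested 2 passed the threshold, CRYAB and HSPB2, both higher, where 5.24% of the 18591 genes tested passed. CRYAB stood at 114, 103.5, 104 and 211 CPM in the even-numbered and at 40.9, 44.6, 54.2 and 69.5 CPM in the odd-numbered libraries. Every even-numbered library lay above every odd-numbered one, and replicate 8 lay far above the other 3. CRYAB was 2.46-fold higher (log2 fold change 1.30, SE 0.171, edgeR adjusted p = 5.92e-08). Without replicate 8 the log2 fold change was 1.00 (edgeR adjusted p = 3.55e-07), just past the cutoff, and without replicate 1 it was 1.24 (edgeR adjusted p = 1.56e-05). With the deposited labels, which put the HEK293T-profile replicate 17 in place of 1, it was 1.66 with an adjusted p of 0.430.

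HSPB2 had 2, 6, 21 and 41 counts in replicates 2, 4, 6 and 8 and 1, 2, 2 and 4 in replicates 1, 3, 5 and 7. These are 1.62 to 7.05 CPM and 0.547 to 1.09 CPM, which do not overlap. The ratio of 70 to 9 counts was 5.77 in CPM with a counting interval from 2.87 to 13.1 (log2 fold change 2.34, SE 0.512, edgeR adjusted p = 5.54e-04). As labelled, the adjusted p was 0.148.

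HSPB2 and CRYAB cannot be counted apart with certainty. In GENCODE 29 on GRCh38, HSPB2 (chr11:111912242-111914093, + strand) lies wholly within the span of CRYAB (chr11:111908565-111923722, - strand), on the opposite strand, over 1852 bases. The 3′ end of CRYAB, at 111908565, lies outside the span of HSPB2, while that of HSPB2, at 111914093, lies within the span of CRYAB. The library kit keeps strand, but the strand setting of the counting is not given in the sources used here. On the same strand, 1358 bases of HSPB2, up to its 3′ end, also lie in HSPB2-C11orf52 (chr11:111912736-111926871). Strand cannot tell these genes apart, and HSPB2-C11orf52 had 1 count over all libraries. HSPB2 had 16.6 counts per 1000 CRYAB counts in U2OS CPT, 5.21 in U2OS DMSO, 32.1 in replicates 2, 4, 6 and 8 and 14.7 in 1, 3, 5 and 7. These ratios rest on 12, 2, 70 and 9 HSPB2 counts, and whether they differ between the groups was not tested. In most libraries with the HEK293T profile HSPB2 had no count, and CRYAB had at most 6.

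**Figure D4:**
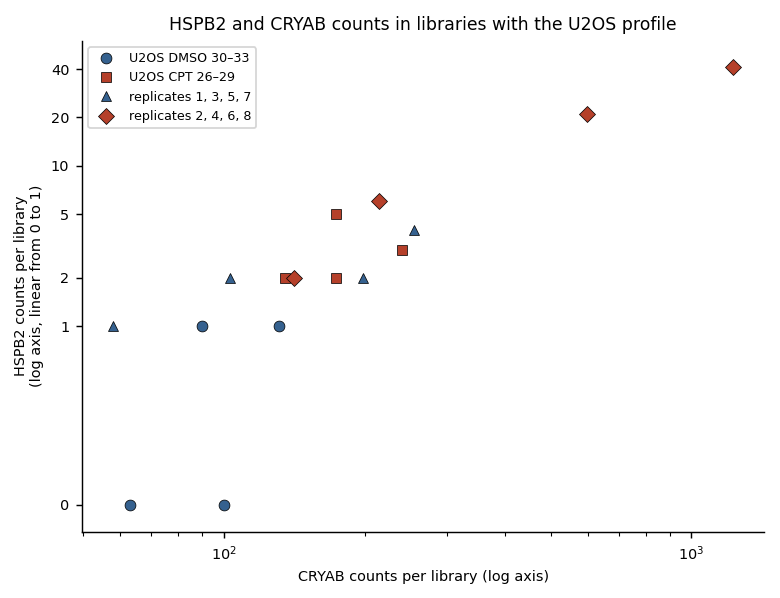
Each point is 1 of the 16 libraries with the U2OS profile, with CRYAB counts on a log axis and HSPB2 counts on an axis that is logarithmic above 1 and linear below it. Libraries with more CRYAB counts tend to have more HSPB2 counts, up to 1229 and 41 in replicate 8, and library totals differ along the axis as well.

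HSPB8 varied widely within both groups. It stood at 25.96, 2.89, 8.51 and 2.23 CPM in replicates 2, 4, 6 and 8 and at 19.8, 9.09, 12.3 and 6.27 CPM in 1, 3, 5 and 7. The groups overlapped (log2 fold change -0.58, 95% interval -1.32 to 0.16, edgeR adjusted p = 0.351). Replicate 2 decided the call, since without it HSPB8 was lower in the even-numbered libraries (log2 fold change -1.23, edgeR adjusted p = 0.0116). HSPB1 stood at 506, 495, 521 and 817.5 CPM and at 526, 639, 598 and 725 CPM, with a log2 interval from -0.43 to 0.18. HSPB11 ran from 60.6 to 64.9 CPM and from 48.5 to 57.8 CPM. Its groups did not overlap, but the log2 fold change of 0.22 (95% interval -0.08 to 0.52) did not pass (edgeR adjusted p = 0.404). HSPB3, a muscle member, had 13 counts in the even-numbered and 4 in the odd-numbered libraries (95% counting interval of the ratio 0.745 to 10.2).

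OPTN was again the 1 gene of the 10 HSPB8-BAG3 partners past the threshold, at 142 ± 39.0 against 44.3 ± 9.65 CPM (SD, n = 4 each; log2 fold change 1.64, SE 0.163, edgeR adjusted p = 1.49e-11). None of 19 heat shock factors and stress-inducible chaperones passed, and none of 16 intraflagellar transport B subunits did. Among 10 muscle contractile genes 1 was higher and 2 were lower, where 5.24% of all genes passed. These were CNN1 (25.9 against 11.5 CPM), TPM1 (299 against 613 CPM) and MYOCD (5.10 against 31.9 CPM). The U2OS markers summed to between 1406 and 1744 CPM in the even-numbered and between 1555 and 1938 CPM in the odd-numbered libraries, with 1 of 8, THBS1, lower past the threshold. The HEK293T markers summed to between 157 and 281.5 and between 187 and 319 CPM, with 1 of 8 higher and 2 lower. Their part in the members' values was not tested.

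**Figure D5:**
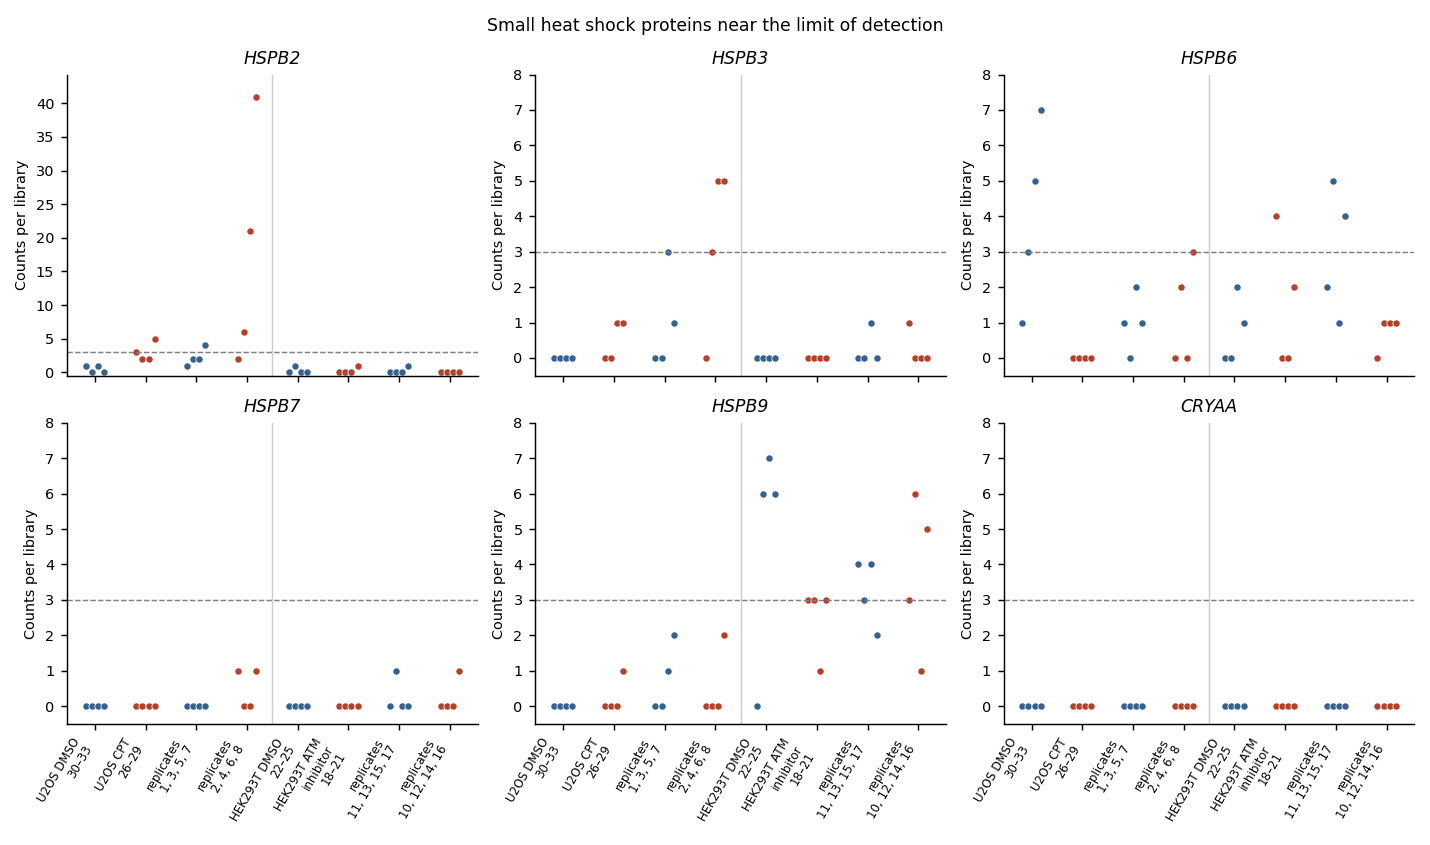
Points give raw counts per library for the 6 members near the detection limit, grouped as in the plot of CPM, with a dashed line at 3 counts. HSPB2 stands above the line in replicates 4, 6, 7, 8 and 29, HSPB9 in libraries with the HEK293T profile, HSPB6 in a few libraries of both lines, and CRYAA is at 0 throughout.

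Whether the shift in replicates 26 to 29 against 30 to 33 differed from that in 10, 12, 14 and 16 against 11, 13, 15 and 17 was tested as an interaction in 1 fit of all 16 libraries. The doses and library sets differ between the lines, and the second set has the label conflict given above. None of the 7 members tested passed, where 11.9% of the 22363 genes tested passed (2 members had an unadjusted p under 0.05, and 0 passed with DESeq2). For HSPB8 the log2 shifts of 2.13 and 2.08 differed by 0.06 (95% interval -0.97 to 1.101, edgeR adjusted p = 1.00), though from levels of 13.1 and 0.974 CPM. For CRYAB the difference was -0.38 with an interval from -2.27 to 1.51, too wide to tell the shifts apart or alike. HSPB1 differed by -0.42 (95% interval -0.79 to -0.06, edgeR adjusted p = 0.109) and HSPB11 by -0.32 (95% interval -0.66 to 0.03, edgeR adjusted p = 0.224). On library totals without TMM scaling both passed at adjusted p alone (0.0116 and 0.0457), short of the cutoff on fold change. Among the stress-inducible chaperones, 4 passed this test, HSPA1A, HSPA1B, DNAJB1 and HSP90AA1, all with the lower shift in replicates 26 to 29.

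Likeness between genes was measured on log2(CPM + 1), centred on the mean of the 8 libraries of each of 4 comparisons. The Pearson correlation over the 32 libraries was 0.129 between CRYAB and HSPB8, -0.16 between CRYAB and HSPB1 and -0.412 between HSPB1 and HSPB8. Among 10208 genes with a log2 mean CPM over 3, those most like CRYAB were NEU3 (0.854), TRNP1 (0.813) and BTG3 (0.811). The genes most like HSPB1 were STIP1 (0.877), a co-chaperone that links HSP70 and HSP90, NXN (0.841) and HNRNPUL1 (0.818). Most like HSPB8 were CYR61 (0.813), a secreted matrix protein, ULBP2 (0.809) and GLIPR1 (0.808). These values describe shared movement in the same libraries, which also share depth and composition, and carry no test. In the 16 libraries with the HEK293T profile CRYAB had 0 to 6 counts, near the floor of 3, and HSPB8 had 0 to 20.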

How the data were processed

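Transcript 3′ ends of both lines were sequenced in 32 libraries (QuantSeq 3′ FWD) that carry molecular identifiers. The values deposited by the authors are raw, unnormalized counts of each gene from Lexogen's UMI pipeline for this kit (version 2.3.1) on the BlueBee Genomics Platform (version 1.10.18). The genome build, annotation release and strand setting of the counting are not given in the sources used here. The table held 60107 genes, 92 spike-in rows (3 counts in all) and 5 summary rows, which held 10.9% to 40.6% of all counts and were left out with the spike-ins. Symbols came from GENCODE 29 for 56531 identifiers. All columns were used.

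A gene was tested in a comparison of 4 libraries against 4 if 2 or more of them had over 1 count for it. The test was the quasi-likelihood test of edgeR (version 4.0.16, R 4.3.3) with TMM scaling and Benjamini-Hochberg adjustment over all genes tested. The study used the same filter and cutoffs with the likelihood ratio test. SEs were taken from the contrast without prior counts and the F statistic, and 95% intervals are normal approximations. Counting intervals are exact binomial (95%) and, like the floor of 3 counts, cover counting error only. The procedure was tested on simulated data.

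Alternatives were the likelihood ratio test, DESeq2 1.42.0, RLE normalization, filterByExpr, no filter, 1 fit of all libraries, other groupings and each library left out in turn, with library totals without TMM and no cutoff on fold change added after seeing the data. Members, gene lists and named genes (all members, ATM, list genes past the threshold and those most like CRYAB, HSPB1 and HSPB8) were chosen with earlier results of these data known. A few list genes short of the threshold (HSPA1A and BAG3 in U2OS) were named after their values were seen. Where labels and profiles disagree, libraries were grouped by number. If libraries of 1 group did not come from separate cultures, p-values measure technical spread only.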

Additional observations from a re-analysis of the deposited data

Results flagged for a closer look

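In each set of 4 libraries, the gap between the highest or lowest value and its nearest neighbour was compared with the whole range by Dixon's test at the 95% level. This was done for the 26 combinations of member and group with at least 3 counts in every library, and chance flags about 1 in 20. Replicate 8 stood apart from replicates 2, 4 and 6 in 2 of them, with CRYAB at 211.2 CPM and a gap of 0.899 of the range, and HSPB1 at 817.5 CPM and a gap of 0.918 of the range. Replicate 8 had 5818796 counts on genes, close to the 5761577 of replicate 6, where CRYAB stood at 104 CPM and HSPB1 at 521 CPM. HSPB11 stood at 62.2 CPM in replicate 8, within the range of the other 3.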

How the results depend on the processing

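With filterByExpr, which tests only genes with more counts, 2 members passed in U2OS CPT against DMSO (4 in the main test), 1 in replicates 2, 4, 6 and 8 against 1, 3, 5 and 7 (2) and 3 in U2OS against HEK293T DMSO (5), because HSPB2, HSPB6 and HSPB9 were no longer tested. Grouped as labelled, 0 members passed in either comparison of the number set, the log2 fold change of HSPB8 turned from 2.08 to -0.27, and the genes past the threshold fell from 2718 to 631 and from 974 to 39. Labelled groups mix the 2 line profiles. HSPB6 turned from 2.49 to -0.32 in the control libraries of the number set. With each library left out in turn, 3 to 4 members passed in U2OS CPT, 1 in replicates 10 to 17, 2 to 3 in replicates 1 to 8, 5 between the lines, and 0 with the ATM inhibitor and in the interaction. Without a cutoff on fold change 5 members passed in U2OS CPT.

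Over all alternatives, 637 member values kept their direction where called and their side of the threshold, 7 lost the call, 1 gained it and 2 turned. Genes past the threshold fell from 2569 to 1652 (U2OS CPT), 2718 to 1461 (replicates 10 to 17), 974 to 644 (replicates 1 to 8) and 7872 to 5090 (lines) with filterByExpr, because fewer genes were tested. Library totals without TMM shifted the median of all genes by -0.17 (U2OS CPT), -0.22 (lines) and -0.19 (interaction) on the log2 scale. The split of higher against lower genes then moved from 1520 and 1049 to 1251 and 1535, from 4301 and 3571 to 3689 and 4501, and from 1151 and 1500 to 792 and 2019. With the ATM inhibitor 14 genes passed without replicate 21, against 0 in the main test. The likelihood ratio test and no filter gave 2 each. Leaving out replicate 18, 1 fit of all libraries and library totals without TMM gave 1 each. No paired analysis was possible because the groups compared share no replicate numbers and no label pairs their libraries.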
